A study of Drosophila melanogaster with 4 samples.

Results

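The core machinery of programmed cell death was examined in Drosophila melanogaster wing imaginal discs, the larval epithelial sacs that give rise to the adult wing and thorax. The 10 genes were chosen by name from a table of 17559 genes: the inducers rpr (reaper), hid, grim and skl (sickle), the inhibitors Diap1 and Diap2, the initiator caspase Dronc with its adaptor Dark, and the effector caspases Drice and Dcp-1. All 10 were found in the table. Discs came from larvae in the third instar, the last larval stage, of 2 genotypes, y w as control and a Paip1 mutant, with 2 RNA-seq libraries each. Levels are in TPM, a transcript's length-corrected share of the library, so levels of different genes can be compared. The labels do not give the Paip1 allele, say whether the mutant also carries y and w, or say whether replicates came from separate collections. The p-values thus set the group difference only against the scatter between these libraries, moderated over genes, and that scatter may be technical. Effects of strain background and of the Paip1 mutation cannot be told apart.

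In flies, caspases are held in check by inhibitor of apoptosis proteins. The inducers carry a short amino-terminal motif that binds these inhibitors and frees the caspases, and their transcription is the main switch for death in imaginal discs. Dronc is activated on a complex built by Dark, the fly relative of Apaf-1, and then cleaves Drice and Dcp-1, which dismantle the cell.

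In the mutant discs the inducers hid and rpr, the initiator caspase Dronc and its adaptor Dark rose, and the inhibitor Diap1 and the effector caspase Dcp-1 fell. The mutant to control ratio of mean TPM was 2.22 for hid, 2.00 for rpr, 1.54 for Dronc and 1.45 for Dark, and it was 0.623 for Diap1 and 0.638 for Dcp-1 (n = 2 libraries in each group, here and throughout). Drice and Diap2 did not pass the test, and skl and grim were too low to be tested. Of all tested genes 44.8% passed, 15.6% higher and 29.1% lower. Among the members, hid alone kept its call whichever library was left out. Within each library, the TPM of hid stood at 0.125 to 0.145 of that of Diap1 in control and at 0.436 to 0.541 in the mutant.

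The targeted gene was low in the libraries labelled mutant. Paip1 (listed as CG8963), which encodes a partner of poly(A)-binding protein, measured 112 and 121 TPM in the control libraries against 2.37 and 2.22 TPM in the mutant ones. All 6 wing disc markers (vg, nub, ap, en, rn and sd) were present, and all 6 fell (2 kept the call when either control library was left out), their sum going from 746 to 748 TPM in control to 341 to 405 TPM in the mutant. Markers of other tissues differed too: the 6 muscle markers summed to 20 to 31.5 TPM in control and 136 to 197 TPM in the mutant, and the 6 hemocyte markers to 1.71 to 7.56 and 20.01 to 28.3 TPM. The 5 fat body markers gave sums of 1234 and 483 TPM for control replicates 1 and 2, against 266 and 36.9 TPM for the mutant replicates. The 6 salivary gland markers summed to 3554 TPM in control replicate 1 and to 1.77 to 3.11 TPM in the other 3 libraries. By the same test as below, 6 of 6 muscle markers and 4 of 5 tested hemocyte markers rose, 2 of 4 tested fat body markers fell and the 2 tested salivary gland markers did not pass. Of 4 adult muscle precursor markers 3 fell, of 4 trachea markers 2 rose and 1 fell, and of 3 tested neuron markers 1 fell. Over all tested genes 15.6% rose and 29.1% fell, so the neuron count lay near the background. The 6 muscle calls held whichever library was left out. Without control replicate 1 there were 1 hemocyte and 1 precursor call and 0 fat body, trachea and neuron calls, and without either single mutant library 0 hemocyte calls. Without control replicate 2 there were 2 hemocyte, 1 precursor, 1 fat body, 1 trachea and 0 neuron calls, and the 2 tested salivary gland markers passed as lower. No marker of these lists was at 0 in every library, but the salivary gland marker Sgs4 was listed at 0 in every library other than control replicate 1. The part of these tissues in the results below was not tested, and in bulk tissue fewer cells of a type and less RNA per cell cannot be told apart. Results without control replicate 1, the library with salivary gland transcripts, are given below.

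The 8 members that reached 1 TPM in 2 libraries or more were tested with limma on log2(TPM + 1) among 8605 genes. Of these 8, 6 passed a Benjamini-Hochberg adjusted p under 0.05, with 4 higher and 2 lower, where 44.8% of all tested genes passed, 15.6% higher and 29.1% lower. All 8 had mutant libraries that did not overlap with control, 4 above and 4 below, as did 25.1% of tested genes above and 52.8% below. Over the 8 members log2 fold changes had a median of 0.18, and over all tested genes of -0.22. By fold change, hid lay above 91.2% of tested genes, rpr above 89.4%, Dronc above 84.7% and Dark above 83.0%, while Diap1 lay above 15.6% and Dcp-1 above 17.2%. When libraries were scaled by median ratios, which brings the median of all genes to -0.003, the share of higher genes among all calls went from 34.9% to 55.9%, and the same 6 members passed in the same directions.

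**Figure D1:**
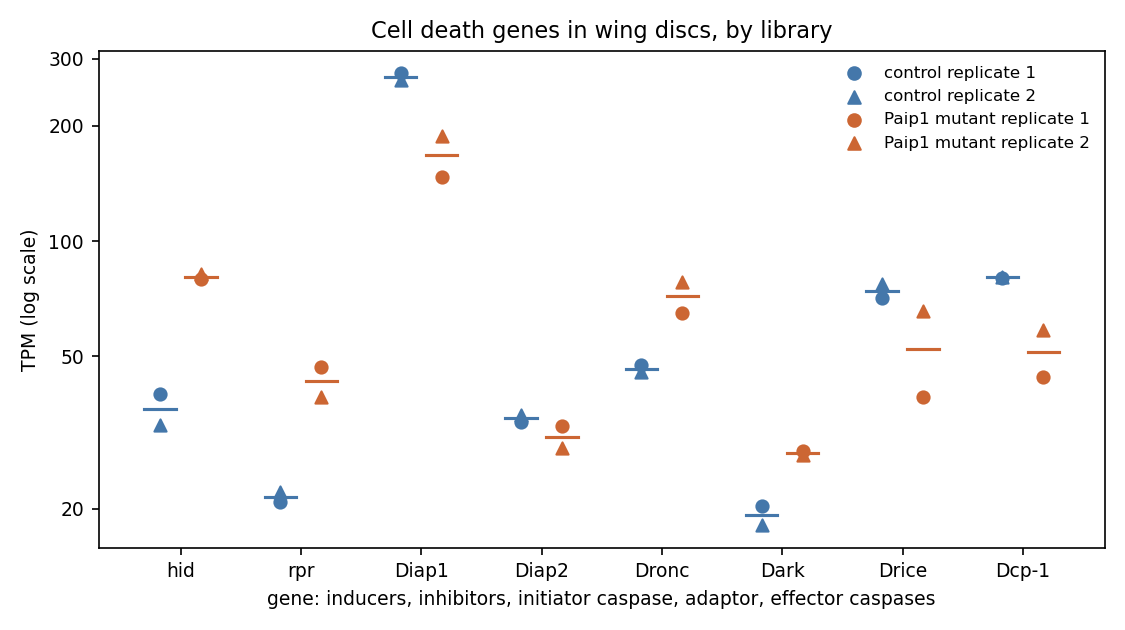
TPM (log axis) of the 8 tested cell death genes in each library, with points for libraries, shapes for replicates and bars for group means. For hid, rpr, Dronc and Dark both mutant libraries lie above both control libraries, and for Diap1, Diap2, Drice and Dcp-1 both lie below; skl and grim, at 0.31 TPM or less, are left out.

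Among the inducers, hid (FBgn0003997) is known for its repression by Ras signalling and by the bantam microRNA. Control replicates 1 and 2 held 39.85 and 33.04 TPM of hid, and mutant replicates 1 and 2 held 79.7 and 81.9 TPM. The mutant libraries lay close together and well above both control libraries. The log2 fold change was 1.13 (SE 0.13, limma adjusted p = 0.00344), or 1.35 relative to the median of all tested genes. Among the 10 genes, hid alone kept its call whichever library was left out, at adjusted p = 0.0249 without control replicate 1, where 11.8% of all tested genes passed, and 0.0387 without control replicate 2, where 12.8% passed.

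The first inducer to be described in flies, rpr (FBgn0011706), encodes a very small protein and is a known target of p53. It was at 20.8 and 22.1 TPM in control and at 46.8 and 39.2 TPM in the mutant, with no overlap between the groups. Its log2 fold change was 0.97 (SE 0.13, limma adjusted p = 0.00562). Leaving out control replicate 1 or control replicate 2 ended the call (adjusted p = 0.0614 and 0.0519), while the log2 fold change stayed between 0.84 and 1.09 with any 1 library left out. The ratio of hid to rpr TPM was 1.91 and 1.49 in control and 1.70 and 2.09 in the mutant, so it overlapped between the groups.

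The remaining inducers were near 0. The relative of reaper encoded by skl (FBgn0036786) was listed at 0 and 0.10 TPM in control and at 0.31 TPM in each mutant library. For grim (FBgn0015946) the values were 0 and 0.05 TPM in control and 0 in both mutant libraries. Neither passed the filter on low values, so neither was tested in the main fit. In the authors' deposited table skl had a fold change of 6.63 with an adjusted p of 0.31, and grim an adjusted p of 1. Read depth is unknown because TPM keeps none, so a level this low cannot be given a counting error.

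All 4 inducer genes lie on the minus strand of chromosome 3L, at chr3L:18167745-18185641 for hid, chr3L:18302719-18304417 for grim, chr3L:18397535-18398435 for rpr and chr3L:18438561-18439942 for skl in dm6. They span 272 kb, with 117 kb between hid and grim, 93.1 kb between grim and rpr and 40.1 kb between rpr and skl. The table holds 11 other genes that lie wholly within this stretch, of which 8 were below 1 TPM in all 4 libraries. Of these 11, 1 was tested, the non-coding RNA CR45936, whose mean was 0.82 TPM in control and 0.705 TPM in mutant discs (limma adjusted p = 0.783). Within the cluster, hid and rpr were expressed and rose, while grim and skl, which lie on either side of rpr, stayed at 0.31 TPM or below.

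Of the inhibitors, Diap1 (FBgn0260635, chr3L:16038410-16051034) encodes the ubiquitin ligase that blocks Dronc and the effector caspases and is needed for the survival of disc cells. It had the highest level of the 10 genes in every library, at 274 and 264 TPM in control and at 147 and 188 TPM in the mutant. The mutant libraries differed from each other more than the control libraries did, yet both lay below them. The log2 fold change was -0.69 (SE 0.15, limma adjusted p = 0.0175), or -0.47 relative to the median of all tested genes. Leaving out either control library ended the call (adjusted p = 0.118 without replicate 1 and 0.106 without replicate 2). Diap1 made up 46.7% and 45.8% of the summed TPM of the 10 genes in control and 30.5% and 33.1% in the mutant.

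Diap2 (FBgn0015247, chr2R:15932170-15934825) can inhibit Drice and is best known for its part in the Imd immune pathway. It was at 33.8 and 35.1 TPM in control and at 32.9 and 28.8 TPM in the mutant, just below the control libraries. It did not pass the test, with a log2 fold change of -0.16 (95% interval -0.46 to 0.15, limma adjusted p = 0.319), and the sign turned under median-ratio scaling (0.07). The ratio of Diap1 to Diap2 was 8.13 and 7.51 in control and 4.48 and 6.52 in the mutant. An exon of Diap2 overlaps bug on the opposite strand, at 20.9 to 26.2 TPM, and whether counting used the strand is not given in the sources used here, so reads of the 2 genes may not be told apart.

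**Figure D2:**
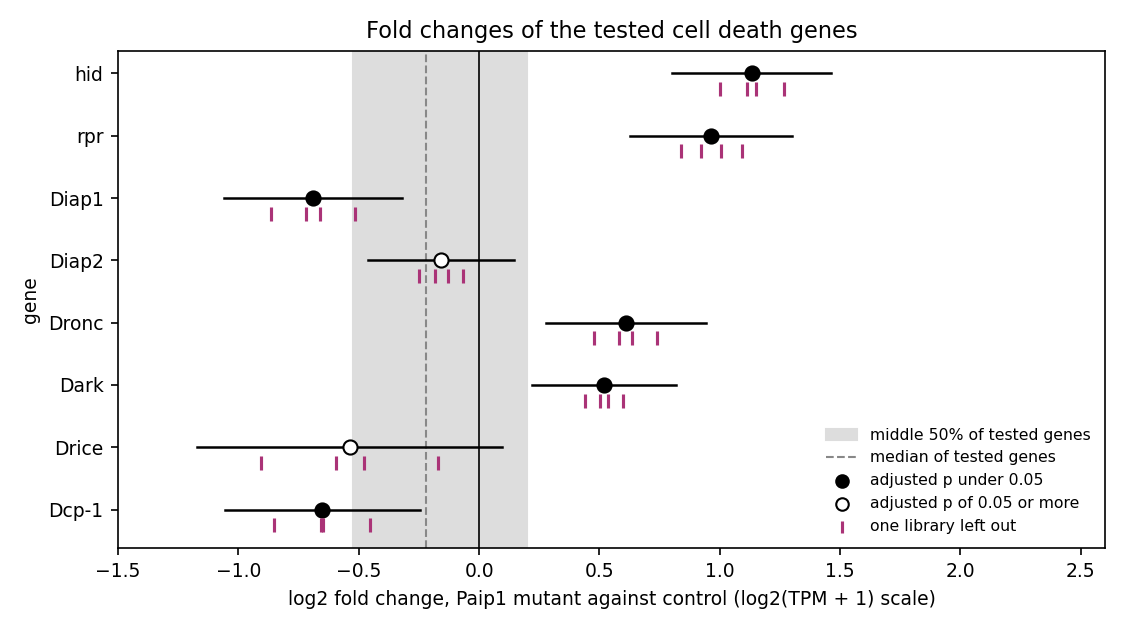
Log2 fold change of each tested cell death gene on the log2(TPM + 1) scale, with its 95% interval from limma, filled where the adjusted p was under 0.05; ticks give the values with 1 library left out. The intervals of hid, rpr, Dronc and Dark lie wholly above 0, those of Diap1 and Dcp-1 wholly below, and Drice has the widest interval, from -1.17 to 0.10.

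At the head of the caspase cascade, Dronc (FBgn0026404, chr3L:9968479-9971002), the fly relative of caspase-9, was at 47.4 and 45.5 TPM in control. It reached 65.05 and 78.3 TPM in the mutant, above both control libraries. The log2 fold change was 0.61 (SE 0.13, limma adjusted p = 0.0185), and 0.83 relative to the median of all genes. Without control replicate 1 or 2 the adjusted p was 0.112 and 0.135.

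The Apaf-1 relative Dark (FBgn0263864) was at 20.3 and 18.1 TPM in control and at 28.2 and 27.6 TPM in the mutant. The mutant libraries lay close together (SD 0.453 TPM) and did not overlap with control. The log2 fold change was 0.52 (SE 0.12, limma adjusted p = 0.0211), and the call was lost with any 1 library left out, at adjusted p = 0.1 and 0.174 without control replicates 1 and 2 and 0.0871 and 0.064 without mutant replicates 1 and 2. The ratio of Dronc to Dark was 2.33 and 2.52 in control and 2.30 and 2.84 in the mutant, so it overlapped between the groups. Exons of Dark overlap the non-coding RNA CR44390 on the opposite strand, at 1.31 to 1.67 TPM, so these genes may share reads.

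Dark is the direct neighbour of the mutated gene. It lies on the plus strand at chr2R:17020027-17026703 and Paip1 on the minus strand at chr2R:17016226-17019522, so that the genes are transcribed away from each other from start sites 505 bases apart in the annotation. An effect of the lesion at Paip1 on Dark itself and an effect of losing Paip1 cannot be told apart here. Within 50 kb of the Paip1 start site, a window chosen after the values were seen, 13 other genes were tested. Of these, 3 rose and 2 fell, or 38.5% against 44.8% of all tested genes. The nearest of them on the far side of Paip1, Ehbp1, had a mutant to control ratio of 0.949 (limma adjusted p = 0.631), and beyond Dark RhoGEF2 had a ratio of 0.882 (adjusted p = 0.322).

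**Figure D3:**
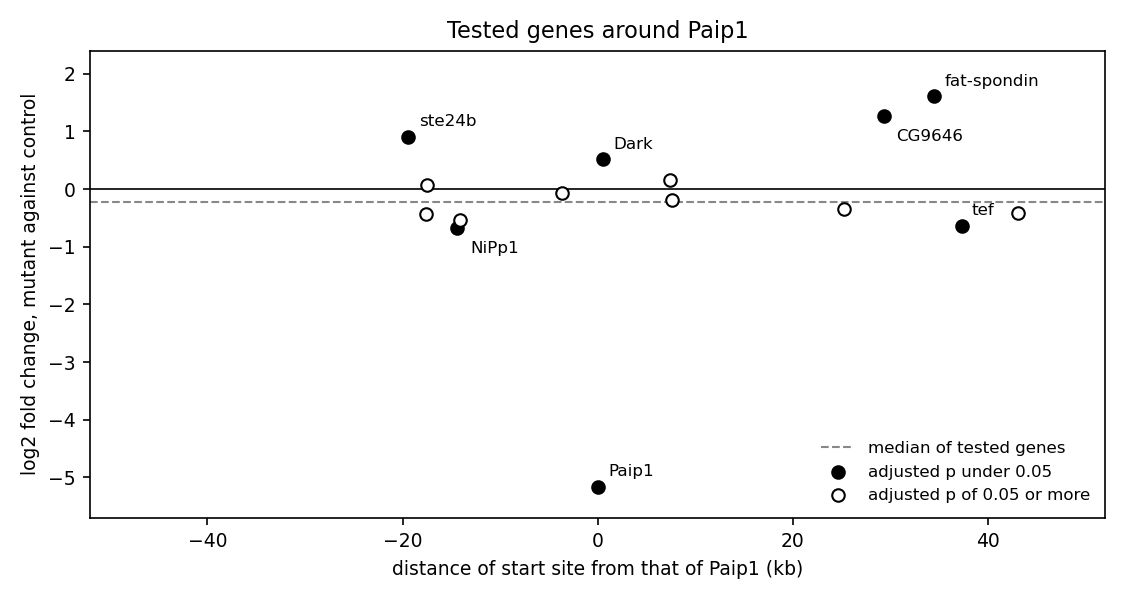
Log2 fold change of tested genes against the distance of their start site from that of Paip1, filled where the adjusted p was under 0.05. Paip1 stands at -5.16 and Dark, 505 bases away, at 0.52; the dashed line is the median of all tested genes, -0.22.

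Of the effector caspases, 1 fell and 1 did not pass the test. Dcp-1 (FBgn0010501, chr2R:23551313-23553547), a relative of caspase-3, was at 80.04 and 80.7 TPM in control and at 44.03 and 58.5 TPM in the mutant. The control libraries nearly coincided, and both mutant libraries lay below them. The log2 fold change was -0.65 (SE 0.16, limma adjusted p = 0.0261). Its call ended when control replicate 1 or 2 was left out (adjusted p = 0.136 and 0.145), when mutant replicate 1 was (adjusted p = 0.053), and when low values were not filtered (adjusted p = 0.0594). Its exons overlap those of pita on the opposite strand, which was at 60.9 and 64.6 TPM in control and at 43.8 and 44.0 TPM in the mutant, so the values of these genes may share reads.

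Drice (FBgn0019972, chr3R:29799658-29801584), the main effector caspase of discs, was at 71.1 and 77.1 TPM in control and at 39.1 and 65.7 TPM in the mutant. Both mutant libraries were lower than control, but they lay far apart from each other. The log2 fold change of -0.54 did not pass (95% interval -1.17 to 0.10, limma adjusted p = 0.134), and it depended on which mutant library was kept, at -0.17 (adjusted p = 0.276) without mutant replicate 1 and -0.90 (adjusted p = 0.0265) without mutant replicate 2. The ratio of Drice to Dcp-1 was 0.888 and 0.955 in control and 0.888 and 1.12 in the mutant, so it overlapped between the groups.

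Ratios within a library do not depend on how libraries are scaled to each other, and they are given as a description. Only the ratio of summed inducers to Diap1 was planned. In both mutant libraries hid, rpr and Dronc were higher than in control, and Diap1, Drice and Dcp-1 were lower. Ratios of the former to the latter therefore had to separate and add no separate result. The summed TPM of the 4 inducers was 0.221 and 0.210 of that of Diap1 in control replicates 1 and 2 and 0.861 and 0.646 in mutant replicates 1 and 2, a mean of 0.215 ± 0.00806 against 0.754 ± 0.152 (SD). The mean ratio was thus 3.50 times as high in the mutant. Dronc stood at 0.173 of Diap1 in each control library and at 0.4415 and 0.417 in the mutant. Dronc against the summed effector caspases went from 0.3135 and 0.2885 to 0.783 and 0.631. The summed effector caspases against Diap1 overlapped between the groups, at 0.551 and 0.598 in control and 0.564 and 0.661 in the mutant.

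**Figure D4:**
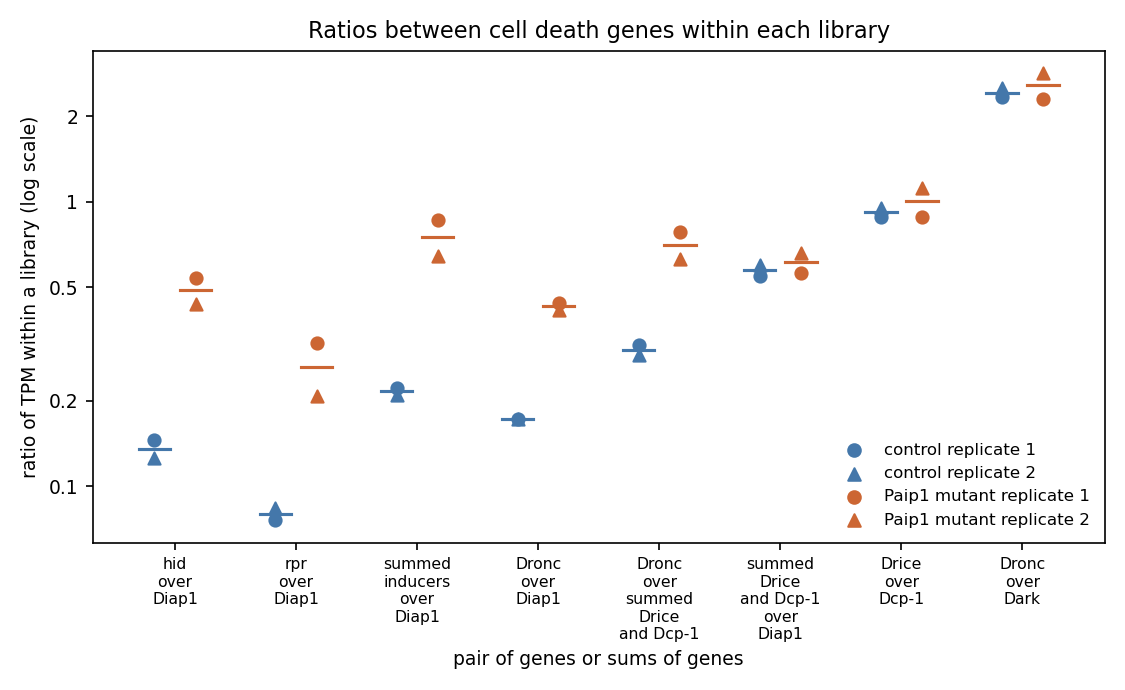
Ratios of TPM between cell death genes within each library, on a log axis, with bars for group means. The 5 ratios that set hid, rpr, the summed inducers or Dronc against Diap1 or Dronc against the effector caspases are higher in both mutant libraries than in both control libraries, while the 3 at the right overlap between the groups.

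The order of the levels differed between the genotypes. In control it ran Diap1, Dcp-1, Drice, Dronc, hid, Diap2, rpr, Dark, skl and grim, where hid overlapped with Diap2, and skl with grim, and no other neighbours overlapped. In the mutant hid came second after Diap1, followed by Dronc, Drice, Dcp-1, rpr, Diap2, Dark, skl and grim, where Dronc overlapped with Drice, Drice with Dcp-1 and Dcp-1 with rpr. The summed TPM of the 10 genes was 588 and 575.5 in control and 483 and 568 in the mutant. Within it, hid made up 6.78% and 5.74% in control and 16.5% and 14.4% in the mutant.

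The authors' deposited table, whose test and scaling differ from those used here, gave the same 6 members an adjusted p under 0.05. That level was reached by 22.4% of all 17559 genes listed. These include genes too low to be tested here, so this share is not comparable with the 44.8% above. Its fold changes were 2.49 for hid, 2.27 for rpr, 1.73 for Dronc, 1.63 for Dark, 0.709 for Diap1 and 0.715 for Dcp-1. In the authors' deposited table only hid and rpr of the 10 carried the mark of significance, which coincided with an adjusted p under 0.05 and at least a 2-fold change. There the fold change of Drice was 0.789 (adjusted p = 0.211) and that of Diap2 was 1.01 (adjusted p = 0.95).

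Regulators that act on the inducers or are known to lie upstream of them moved in both directions, with 6 of 18 tested genes higher and 4 lower and a median log2 fold change of -0.11, against 15.6% higher, 29.1% lower and a median of -0.22 over all tested genes, the background for each list below as well. The number lower depended strongly on which library was left out, while the number higher changed little. The DNA damage factor p53 rose from 17.3 ± 1.02 to 60.0 ± 11.7 TPM (log2 fold change 1.72, limma adjusted p = 0.00191). Xrp1, a stress-induced transcription factor, rose from 251 ± 5.85 to 675 ± 21.0 TPM (log2 fold change 1.42, limma adjusted p = 0.000765). The phosphatase gene puc, a target of JNK signalling that feeds back on that kinase, rose from 23.2 ± 1.80 to 55.3 ± 1.48 TPM (log2 fold change 1.22, limma adjusted p = 0.00188). The TNF receptor gene wgn fell, with a log2 fold change of -1.83 (limma adjusted p = 0.000693). These 4 genes kept their calls whichever library was left out. Also among the 6 higher, the TNF ligand gene egr rose from 6.625 ± 0.445 to 14.6 ± 0.615 TPM (limma adjusted p = 0.00439). The gene kay rose from 61.7 ± 11.1 to 181 ± 11.6 TPM (limma adjusted p = 0.0023). The other TNF receptor gene listed, grnd, did not pass (limma adjusted p = 0.805). The ecdysone response gene br, among the 4 lower, fell from 497 ± 95.9 to 155 ± 60.4 TPM (log2 fold change -1.72, limma adjusted p = 0.0101). Its call was lost without control replicate 1 or mutant replicate 1. The limma adjusted p was 0.913 for the ecdysone receptor EcR, 0.625 for Myc and 0.493 for yki, the Hippo pathway coactivator known to drive Diap1. The genes egr, kay, grnd, br, EcR, Myc and yki were named after their values were seen.

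Of the 4 other caspases, with a median log2 fold change of 0.30, Damm alone passed the test. It rose from 0.65 ± 0.467 to 5.28 ± 1.98 TPM (log2 fold change 1.92, limma adjusted p = 0.0102), with a lost call without control replicate 2 (adjusted p = 0.0588) or mutant replicate 1 (0.0661). At this low level its log2 fold change depended on the pseudocount, at 2.95 with 0.1 added to each value and 0.85 with 5 added. Dredd, a caspase of the Imd immune pathway and the highest of the 4, went from 63.4 ± 6.42 to 46.2 ± 9.29 TPM and did not pass (limma adjusted p = 0.0808), though it did without mutant replicate 2 (adjusted p = 0.049). Strica and Decay did not pass (adjusted p = 0.275 and 0.653).

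Of 7 tested genes whose proteins act on Diap1 or Dronc, 1 rose and 1 fell, with a median log2 fold change of -0.25. Myo31DF, an unconventional myosin known for its part in left-right asymmetry, rose from 45.9 ± 2.04 to 90.9 ± 14.4 TPM (log2 fold change 0.96, limma adjusted p = 0.0071), but missed the threshold once either control library was left out (adjusted p = 0.0591 and 0.0683). The ubiquitin-activating enzyme Uba1 fell from 299.8 ± 10.2 to 224 ± 14.5 TPM (log2 fold change -0.42, limma adjusted p = 0.0289), a call that did not hold with median-ratio scaling (adjusted p = 0.141), with values rescaled to a common sum (adjusted p = 0.0564) or with any library left out but mutant replicate 2 (adjusted p = 0.0723 to 0.193).

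Of 7 tested mitochondrial, Bcl-2 family and other inhibitor genes, 2 rose and 1 fell, with a median log2 fold change of -0.14. The somatic cytochrome c gene Cyt-c-p rose from 207 ± 36.1 to 427 ± 100.4 TPM (log2 fold change 1.03, limma adjusted p = 0.01545), and EndoG, a mitochondrial nuclease, from 7.49 ± 1.499 to 15.1 ± 1.12 TPM (log2 fold change 0.93, limma adjusted p = 0.0116). Det, a survivin relative that acts in cell division, fell from 92.5 ± 8.83 to 62.9 ± 2.79 TPM (log2 fold change -0.55, limma adjusted p = 0.0193). The call of Det was lost with any 1 library left out and under median-ratio scaling (adjusted p = 0.0828), that of Cyt-c-p with any library left out but mutant replicate 1, and that of EndoG with any left out but control replicate 2.

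Both tested genes of the caspase-activated nuclease family fell, and the 3 other genes of the nuclease list were too low to test. Drep4, the nuclease, fell from 14.3 ± 1.44 to 8.21 ± 1.10 TPM (log2 fold change -0.74, limma adjusted p = 0.0164), and Drep1, its inhibitor, from 18.2 ± 1.06 to 12.1 ± 1.74 TPM (log2 fold change -0.55, limma adjusted p = 0.0306). Of 8 tested engulfment genes 2 fell and 6 did not pass, near the 29.1% lower of all tested genes, and their median log2 fold change was -0.16, against -0.22. The adaptor ced-6 fell from 56.8 ± 5.49 to 34.2 ± 1.33 TPM (log2 fold change -0.71, limma adjusted p = 0.00982) and the F-box gene pall from 30.3 ± 1.53 to 17.9 ± 3.95 TPM (log2 fold change -0.74, limma adjusted p = 0.0226). The engulfment receptor genes drpr and crq, named after their values were seen, had log2 fold changes of -0.03 and -0.08 (limma adjusted p = 0.833 and 0.602), and of 0.19 and 0.14 under median-ratio scaling. The calls of Drep4, Drep1, ced-6 and pall were kept without mutant replicate 2 and lost without any other single library, and that of Drep1 did not hold with median-ratio scaling either (adjusted p = 0.0722). With no filter on low values Drep1 (adjusted p = 0.0768), Drep4 (0.0545) and pall (0.0606) missed the threshold too.

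**Figure D5:**
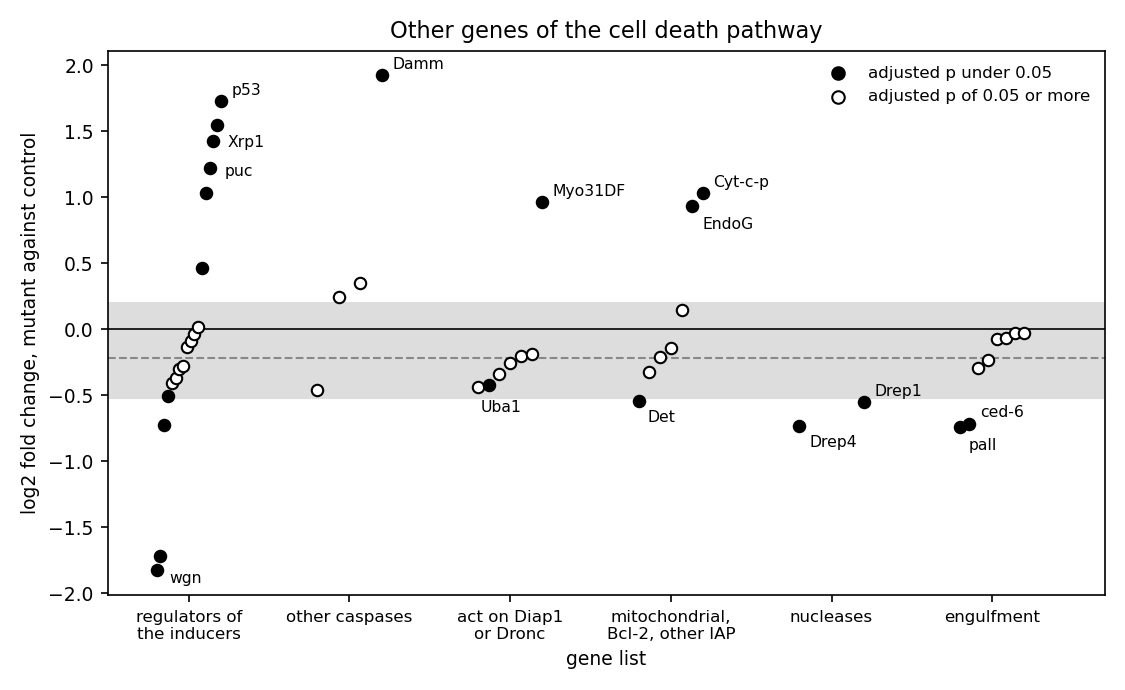
Log2 fold changes of the tested genes of 6 lists of the cell death pathway, filled where the adjusted p was under 0.05, with the grey band for the middle 50% of all tested genes and the dashed line for their median, -0.22. With a pseudocount of 1, Damm is at 1.92 and p53 at 1.72, and the called nuclease and engulfment genes lie between -0.74 and -0.55.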

How the data were processed

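A single table covers the whole series. Its 4 library columns were read as TPM, since the authors deposited values that are not whole and whose sum per library lies between 919460 and 996531, with no unit named. Per the file headers, the other numeric columns are the authors' group means, their fold change (mutant over control) as a ratio and as log2, and their p-values before and after adjustment. The submitters' processing notes list FastQC, TopHat, RSEM, DESeq and dm6 without saying what each did. Strand use and filters were not given in the sources used here. TPM keeps no depth, so precision rests on 2 libraries per group.

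Levels are means ± SD. limma 3.58.1 in R 4.3.3 was fitted to log2(TPM + 1) over 8605 genes that reached 1 TPM in 2 libraries or more. Variances followed the mean, tests were two-sided and p-values had Benjamini-Hochberg adjustment over all these genes, with 2 residual and 3.27 prior degrees of freedom. Adding 1 shrinks the fold changes of low genes. Coordinates come from Ensembl annotation 115, which uses dm6. Python 3.11.15 with pandas 2.3.3 and matplotlib 3.10.9 made tables and figures.

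The members and gene lists were chosen with earlier results of these data known. The text names all 10 members, Paip1, and from each list at most 4 called genes, taken by p, or else the 2 most abundant. The 6 wing disc markers, egr, kay, br and Sgs4 were named outside this rule, after their values were seen. So were the genes that did not pass in lists with calls (Dredd, Strica, Decay, grnd, EcR, Myc, yki, drpr and crq). Also outside it were CR45936 in the inducer region, Ehbp1 and RhoGEF2 near Paip1, and genes that overlap members (bug, pita and CR44390). The genes nearest to members by profile were named by distance. Alternatives were other pseudocounts, filters, scalings and variance models, a replicate block, and each library left out in turn.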

Additional observations from a re-analysis of the deposited data

How the results depend on the processing

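The number of members past the threshold was 6 in the main test and 5 to 6 under other pseudocounts, filters, scalings and variance models. With 1 library left out it was 1 to 6, with hid alone left without control replicate 1 or 2, while the number of all genes that passed was 1013 to 3273, against 3852 in the main test. The mean ratio of inducers to Diap1 was 3.50 times as high in the mutant, and 3.37 times with 1 added to each value and 3.61 times for hid alone. No called gene named in the text changed sign under any alternative. Replicate numbers are shared by the groups, but deviations of same-numbered libraries correlated at only 0.0648 over tested genes and the labels tie them to nothing. With the replicate block, 4246 genes and the same 6 members passed, and so did Dredd (adjusted p = 0.0273). Depth is unknown, and genes near 0 such as skl and grim could not be assessed.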

Other observations

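By the distance between log2(TPM + 1) profiles centred per gene over the 4 libraries, the tested gene nearest to Dronc was dally, a heparan sulfate proteoglycan gene (distance 0.0132), and those nearest to Diap1 were Mrtf, a cofactor of serum response factor (0.0229), and pdm2, a POU factor (0.0258). The nearest to hid was Tep2, a thioester protein gene (0.0996), and the nearest to rpr was Dip3 (0.0176), which stayed at 1.57 TPM or below in all 4 libraries. For Dark it was CG30069 (0.0559) and for Dcp-1 the gene ari-2 (0.0344). With 4 libraries in 2 groups, such likeness is a description of these libraries.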
